A study of Mus musculus with 12 samples.

Results

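The comparison set 3 libraries of NG2 knockout fibrochondrocytes titled Opti, called KO_Opti, against 3 libraries of wild type fibrochondrocytes titled Norm, called WT_Norm, which are 6 of the 12 RNA-seq libraries of the study. The members were chosen by library title. The cells were primary fibrochondrocytes grown from the mandibular condylar cartilage of pups aged 10 to 14 days, and the labels give RNA at passage 4, whereas the methods describe use at an earlier passage. KO_Opti cells came from mice with no functional Cspg4 allele in any cell of the animal, made from a knockout-first allele that was converted with a Cre line into a reporter-tagged deletion and crossed back onto C57BL/6J. WT_Norm cells came from C57BL/6J mice. The other 6 libraries were knockout cells titled Norm (KO_Norm) and wild type cells titled Opti (WT_Opti), 3 each. Norm is AMEM with heat-inactivated fetal bovine serum, Opti is Opti-MEM without serum, and both held glutamine, penicillin and Plasmocin, so the basal medium changes together with serum.

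The medium of the knockout libraries is given in opposite ways by their labels. The titles of the KO_Opti libraries carry the word for Opti-MEM, but their treatment entry names AMEM growth medium with serum. For the WT_Norm libraries both entries name serum medium. If the treatment entry is right, KO_Opti against WT_Norm is a comparison of genotype within serum medium. If the title is right, genotype and medium changed together and cannot be told apart. Every value below stands under both readings, and no reading was chosen from the expression values. The methods call the 3 libraries of a group biological replicates. Nothing in the labels ties them to separate animals, and the p-values therefore describe only how far these libraries spread, which may be technical.

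NG2, the product of Cspg4, is a transmembrane chondroitin sulfate proteoglycan. Its extracellular part binds collagen VI and growth factors such as FGF2 and PDGF-AA, and its cytoplasmic tail is phosphorylated by PKC-alpha and ERK and binds PDZ proteins. It is known from pericytes, glial progenitors and chondrocytes, where it takes part in adhesion, spreading and migration. Mandibular fibrochondrocytes make type I collagen of fibrous tissue as well as aggrecan and type II collagen of cartilage.

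Total counts were 63979224 to 71448484 in KO_Opti and 51546504 to 70094901 in WT_Norm. Of 31075 genes in the table, 19118 passed the filter on low counts and were tested. Levels are given as CPM, the counts of a gene scaled to a common library size with TMM factors, and differences as log2 fold changes of KO_Opti over WT_Norm with their standard error (n = 3 libraries per group). The 10 most abundant genes took 11.9% to 13.6% of counts in KO_Opti and 20.7% to 26.0% in WT_Norm, and the type I collagen genes Col1a1 and Col1a2 alone took 3.38% to 4.79% in KO_Opti and 11.1% to 11.7% in WT_Norm. Mitochondrially encoded genes took 5.90%, 2.2% and 3.0% of counts in KO_Opti, against 1.44% to 1.54% in WT_Norm. The mean log2 CPM of 4 Y-linked genes was 4.08 to 4.24 in KO_Opti and 3.13 to 3.84 in WT_Norm, without overlap. The labels do not give the sex of the pups. Replicates of a group differed by more than sampling noise in every pair, so each library counted as 1 replicate.

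Cspg4 itself was measured first. It lies on chromosome 9 of GRCm38 (56865033-56899870). Cspg4 had 12.4, 10.5 and 12.97 CPM in KO_Opti, against 176, 216 and 201 CPM in WT_Norm. These levels come from 870, 786 and 1010 counts in KO_Opti, against 11117, 13703 and 9312 counts in WT_Norm. The groups did not overlap, and the residual counts in the knockout libraries were well above 0. The log2 fold change was -4.05 ± 0.19 (adjusted p = 1.35e-08). The exact two-sided permutation test on the mean log2 CPM gave p = 0.1, the smallest that 3 against 3 can reach. The other knockout libraries had 16.6, 10.8 and 11.7 CPM in KO_Norm, against 147, 158 and 114 CPM in WT_Opti. Counts per gene do not show which exons the residual reads cover.

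Collagen VI, the matrix ligand of NG2, fell with it. A list of 25 tested genes held Cspg4 itself with its ligands, receptors and partners. Of these, 3 were higher and 11, Cspg4 among them, lower in KO_Opti at an adjusted p under 0.05. Over all tested genes 21.3% were called higher and 20.3% lower. The median log2 fold change of the list was -0.33, beside 0.02 over all genes, and was -0.22 without KO_Opti replicate 1 and -0.20 without WT_Norm replicate 2. It was -0.06 without WT_Norm replicate 3 and KO_Opti replicate 1 together, and -0.43 without KO_Opti replicate 2. Col6a5 was listed but had too few counts to test. Under library totals without TMM factors, 5 members were higher and 7 lower (median -0.09), and on the deposited FPKM values 5 were higher and 5 lower (median -0.03).

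All 3 major collagen VI chains, which form the beaded microfibrils that surround chondrocytes, were lower. Col6a1 had 1044, 1447 and 1329 CPM in KO_Opti, against 4440.1, 4501 and 4538 CPM in WT_Norm. Col6a2 had 862, 1218 and 1138 CPM in KO_Opti, against 4307, 4517 and 4597 CPM in WT_Norm. Col6a3 had 676, 997 and 854 CPM in KO_Opti, against 2352, 2831 and 2301 CPM in WT_Norm. None of the 3 genes overlapped between the groups, as for 52.2% of all tested genes (27.4% with KO_Opti above and 24.7% with KO_Opti below). The log2 fold changes were -1.82 ± 0.15 for Col6a1 (adjusted p = 1.14e-06), -2.06 ± 0.14 for Col6a2 (adjusted p = 2.38e-07) and -1.57 ± 0.24 for Col6a3 (adjusted p = 2.14e-04). Lgals3, which encodes the NG2-binding lectin galectin-3, went the other way. Lgals3 had 283, 319 and 266 CPM in KO_Opti, against 122, 128 and 93.98 CPM in WT_Norm. Its log2 fold change was 1.33 ± 0.16 (adjusted p = 2.73e-05). Itgb1, the beta-1 integrin subunit that NG2 binds on the cell surface, had a log2 fold change of -0.41 ± 0.14 (adjusted p = 0.0301) and lost its call without TMM factors, on FPKM, without the filter on low counts, in a fit of the 6 libraries alone, with Y-linked expression as a covariate and without any of 4 single libraries (KO_Opti replicates 1 and 3, WT_Norm replicates 1 and 2). Itga3, its alpha-3 partner, did not pass the test (0.33 ± 0.30).

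The PDGF receptors moved in opposite directions. Pdgfra had 43.1, 58.4 and 58.2 CPM in KO_Opti, against 89.5, 83.8 and 76.1 CPM in WT_Norm. Pdgfrb had 631, 732 and 698 CPM in KO_Opti, against 333, 282 and 276 CPM in WT_Norm. Both genes separated the groups, with Pdgfra lower (-0.64 ± 0.16, adjusted p = 0.00657) and Pdgfrb higher (1.21 ± 0.15, adjusted p = 3.04e-05), although the Pdgfra call was lost without TMM factors and on FPKM. Their ligand gene Pdgfa was lower, with 14.4, 19.3 and 18.3 CPM in KO_Opti, against 32.9, 38.5 and 55.1 CPM in WT_Norm (-1.28 ± 0.17, adjusted p = 8.35e-05). Fgf2 was lower by a smaller amount (-0.66 ± 0.13, adjusted p = 0.0015). Its call was lost on FPKM.

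Among the intracellular partners, Mapk3 (ERK1; -0.56 ± 0.10), Prkca (PKC-alpha; -0.42 ± 0.12) and Tiam1 (a Rac exchange factor; -0.83 ± 0.25) were lower, with adjusted p of 5.47e-04, 0.0141 and 0.0176, and Htra2, a mitochondrial protease reported to bind NG2, was higher (0.56 ± 0.11, adjusted p = 0.00157). The calls of Mapk3, Prkca and Tiam1 were lost on FPKM, and those of Prkca and Tiam1 also without TMM factors and without KO_Opti replicate 1 or WT_Norm replicate 1. Tiam1 also lost its call without WT_Norm replicate 3 and KO_Opti replicate 1 together, and with the Y-linked covariate Mapk3 and Tiam1 did. The PDZ-domain partners Mpdz (0.04 ± 0.15), Sdcbp (0.005 ± 0.13) and Grip1 (-1.37 ± 0.69), and the sheddases Mmp14 (-0.02 ± 0.12) and Adam10 (-0.33 ± 0.15), did not pass the test. The same held for Mtor, Ptk2, Rhoa and Col6a6.

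**Figure D1:**
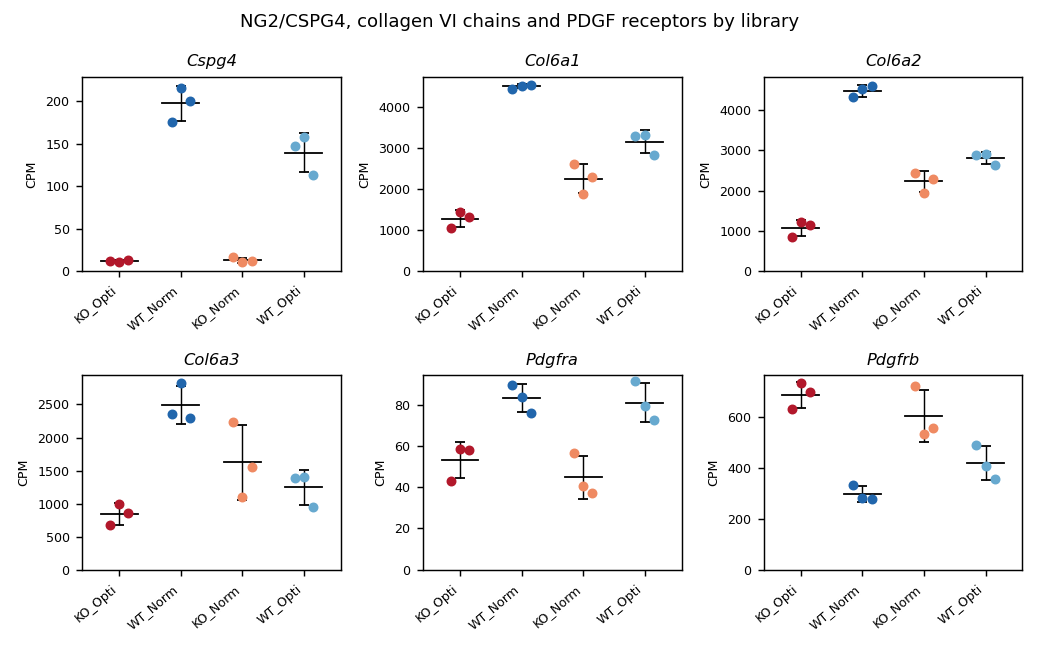
CPM (TMM-scaled, linear axes from 0) of Cspg4, the collagen VI chains and the PDGF receptors in each library of the 4 groups, with the group mean and SD (n = 3). KO_Opti lies below WT_Norm in every library for Cspg4, Col6a1, Col6a2, Col6a3 and Pdgfra and above it for Pdgfrb.

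Across all genes, 7944 of 19118 passed an adjusted p of 0.05, or 41.6%, of which 4072 were higher and 3872 lower in KO_Opti, which is 51.3% higher. Large changes were more often decreases: 1265 genes (6.62%) rose and 2185 (11.4%) fell at least 2-fold, 18% in all, and 362 rose and 891 fell at least 4-fold. The split depended on the scaling. Without TMM factors 6646 genes were higher and 2754 lower (70.7% higher), with the median of all genes shifted by 0.245 on the log2 scale, and on FPKM 6998 were higher and 2411 lower (74.4% higher), with a shift of 0.262. When the Y-linked mean entered the fit as a covariate, 3540 genes passed, 1444 higher and 2096 lower. Of them 3264 were among the 7944 with the same sign. This mean was also 4.69 to 4.89 in KO_Norm and 3.49 to 3.78 in WT_Opti, so every knockout library lay above every wild type library. The covariate and genotype therefore cannot be told apart in this fit. Calls lost under it, here and below, cannot be assigned to sex.

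**Figure D2:**
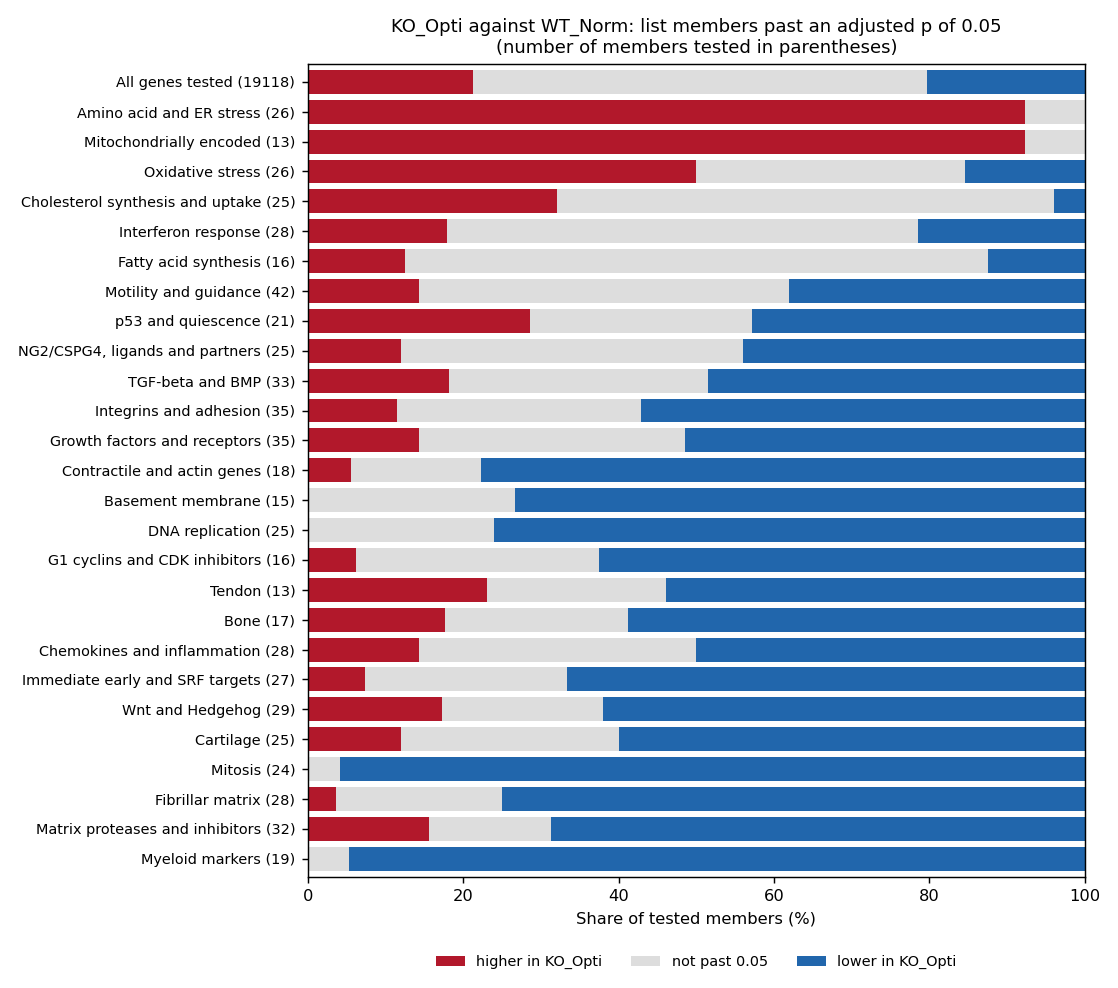
Share of the tested members of each gene list (number in parentheses) that were higher in KO_Opti (red), lower in KO_Opti (blue) or not past an adjusted p of 0.05 (grey), in KO_Opti against WT_Norm, ordered by the median log2 fold change of the list, with all 19118 tested genes in the top bar. The amino acid and ER stress genes are almost all red, and the mitosis and myeloid lists almost all blue.

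Fibrous matrix genes fell. Of 28 fibrillar collagens, proteoglycans and crosslinking enzymes, 21 were lower and 1 was higher, with a median log2 fold change of -1.38. Their summed level was 82833 to 119080.0 CPM in KO_Opti and 220693 to 237164 CPM in WT_Norm. Col1a1 had 17910.3, 26616 and 24405 CPM in KO_Opti, against 71026, 77451 and 82155 CPM in WT_Norm. Col1a1 encodes the main chain of type I collagen, and its groups were far apart (-1.74 ± 0.16, adjusted p = 3.24e-06). The small leucine-rich proteoglycans lumican and decorin, which bind collagen fibrils and set their spacing, fell the most in the list. Lum had 138, 171 and 165 CPM in KO_Opti, against 3389, 4470.2 and 3411 CPM in WT_Norm. Dcn had 261, 314 and 305 CPM in KO_Opti, against 1946, 2419 and 1965 CPM in WT_Norm. Every KO_Opti library was below every WT_Norm library for both, with log2 fold changes of -4.57 ± 0.17 for Lum (adjusted p = 5.50e-09) and -2.85 ± 0.13 for Dcn (adjusted p = 1.61e-08).

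Tnc, which encodes the anti-adhesive glycoprotein tenascin-C, had 378, 518 and 546 CPM in KO_Opti, against 3107, 3479 and 2956 CPM in WT_Norm (-2.73 ± 0.21, adjusted p = 8.05e-07). The matricellular gene Postn (-1.49 ± 0.16), the minor collagen chain gene Col5a3 (-1.55 ± 0.10, adjusted p = 2.30e-07), the elastin gene Eln (-1.65 ± 0.21) and the lysyl oxidase Loxl2 (-1.73 ± 0.16) also fell. Fbn1, which encodes the microfibril protein fibrillin-1, was the member that rose (0.97 ± 0.33, adjusted p = 0.0305). Fn1, Bgn and Col5a2 did not pass the test.

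Basement membrane genes followed: 11 of 15 were lower and 0 higher, with a median of -0.79. Lama1, the gene of the laminin alpha-1 chain, was not on this list and rose (4.72 ± 0.31, adjusted p = 1.74e-07). Col15a1, a collagen at the border of basement membranes, had 3.07, 3.87 and 2.97 CPM in KO_Opti, against 24.3, 17.01 and 19.1 CPM in WT_Norm (-2.61 ± 0.21, adjusted p = 1.00e-06). Nid2 (nidogen-2; -1.18 ± 0.16), the perlecan gene Hspg2 (-1.62 ± 0.30) and Sparc (-0.84 ± 0.12) fell, and the laminin chains Lamb1, Lamb2, Lamc1 and Lama2 did not pass. On FPKM 6 of the 15 were lower, without the call for Sparc, and with the Y-linked covariate 7 were.

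Cartilage genes mostly fell, with 1 large exception. Of 25 tested members 15 were lower and 3 higher, with a median of -1.196 (Snorc and Cytl1 had too few counts). Acan had 18.3, 25.7 and 27.7 CPM in KO_Opti, against 62.9, 69.2 and 62.7 CPM in WT_Norm. Aggrecan, the bulk proteoglycan of cartilage, was thus lower in every KO_Opti library (-1.44 ± 0.28, adjusted p = 0.0012), and Col2a1, encoding type II collagen, fell less (-0.78 ± 0.14, adjusted p = 6.37e-04). Pth1r had 33.9, 42.9 and 46.1 CPM in KO_Opti, against 204, 243 and 235 CPM in WT_Norm. Pth1r encodes the receptor for parathyroid hormone-related protein, which holds chondrocytes back from hypertrophy, and fell (-2.47 ± 0.14, adjusted p = 5.33e-08), as did Fgfr3, a receptor that limits chondrocyte proliferation (-2.64 ± 0.18, adjusted p = 2.65e-07). Of the hypertrophy genes, Col10a1 had 0.341, 0.0938 and 0.167 CPM in KO_Opti, against 5.13, 4.23 and 3.93 CPM in WT_Norm, and Ihh had 0.156, 0.201 and 0.205 CPM in KO_Opti, against 1.39, 3.38 and 2.96 CPM in WT_Norm, both low.

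Prg4, which encodes the joint lubricant lubricin of the articular surface, rose. Prg4 had 21.1, 25.6 and 28.6 CPM in KO_Opti, against 3.71, 4.17 and 3.26 CPM in WT_Norm. The groups did not overlap (2.76 ± 0.18, adjusted p = 2.05e-07). Sox9, the master transcription factor of chondrocytes, rose as well, with 66.6, 84.9 and 77.3 CPM in KO_Opti, against 52.96, 40.6 and 53.2 CPM in WT_Norm (0.64 ± 0.12, adjusted p = 9.08e-04), whereas its partners Sox5 (0.03 ± 0.16) and Sox6 (-0.22 ± 0.15) did not pass. Runx3 also rose (0.66 ± 0.12).

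Osteoblast genes showed some of the widest gaps. Of 17 tested bone genes 10 were lower and 3 higher, with a median of -0.92. Ibsp had 7.24, 24.2 and 29.01 CPM in KO_Opti, against 665, 1085 and 867 CPM in WT_Norm. Alpl had 43.5, 62.4 and 71.1 CPM in KO_Opti, against 525, 604 and 636 CPM in WT_Norm. Sp7 had 19.2, 24.8 and 25.6 CPM in KO_Opti, against 124, 148 and 139.5 CPM in WT_Norm. Ibsp encodes bone sialoprotein, Alpl the phosphatase that permits mineralisation and Sp7 the osteoblast transcription factor osterix, and none of them overlapped between the groups. The log2 fold changes were -5.44 ± 0.50 for Ibsp (adjusted p = 3.17e-06), -3.32 ± 0.21 for Alpl (adjusted p = 1.26e-07) and -2.56 ± 0.14 for Sp7 (adjusted p = 4.93e-08). Runx2, which acts upstream of Sp7, fell by less (-0.64 ± 0.11, adjusted p = 3.88e-04). The mineralisation regulators Spp1 (0.66 ± 0.15), Enpp1 (0.72 ± 0.15) and Ank (0.47 ± 0.09), which in part hold mineral deposition back, rose, and on FPKM 6 members were higher.

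Tendon genes were split, with 7 of 13 lower and 3 higher. Dpt, encoding the collagen-binding protein dermatopontin, had 0.952, 0.228 and 0.693 CPM in KO_Opti, against 23.8, 34.7 and 26.9 CPM in WT_Norm (-5.51 ± 0.36, adjusted p = 2.13e-07). Thbs4, a thrombospondin of tendon matrix, had 161, 167 and 170.2 CPM in KO_Opti, against 45.3, 42.3 and 40.2 CPM in WT_Norm (1.96 ± 0.13, adjusted p = 1.70e-07). The first gene was far lower and the other higher in every library. The tendon transcription factor Scx did not pass the test (0.37 ± 0.18).

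**Figure D3:**
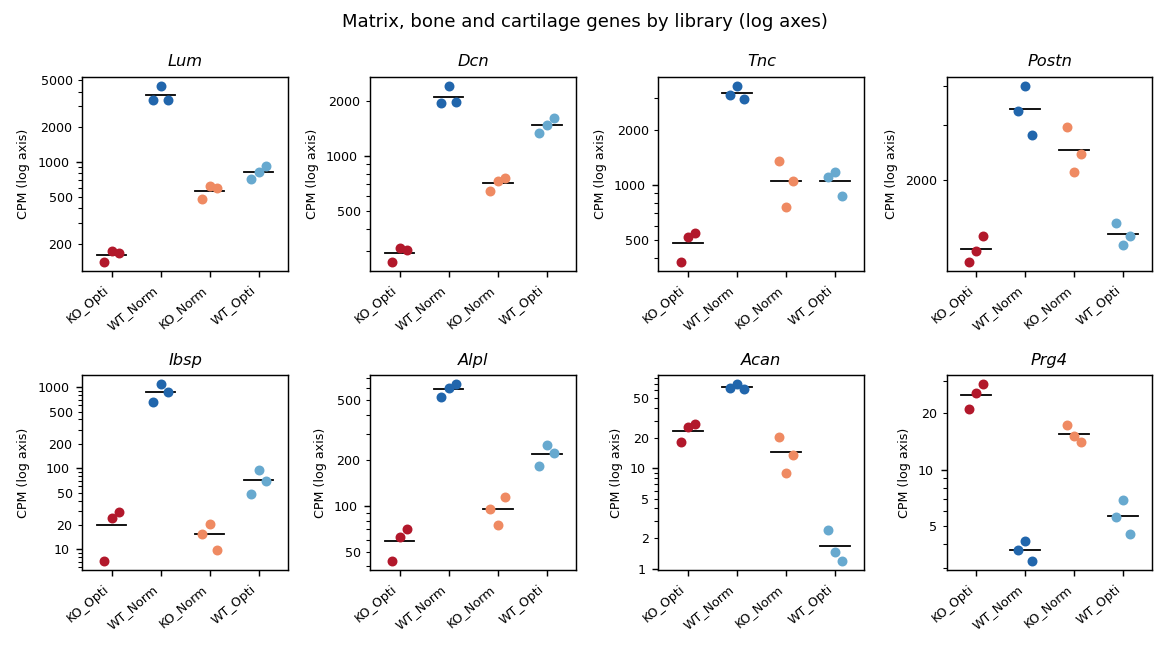
CPM (TMM-scaled, log axes) of matrix, bone and cartilage genes in each library of the 4 groups, with the group mean as a line (n = 3). Lum, Dcn, Tnc, Postn, Ibsp, Alpl and Acan lie lower in every KO_Opti library than in every WT_Norm library, and Prg4 lies higher.

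Of 32 matrix proteases and inhibitors 22 were lower and 5 higher, with a median of -1.49. Plat had 17.4, 18.5 and 22.6 CPM in KO_Opti, against 114, 133 and 121 CPM in WT_Norm. Plat, the tissue-type plasminogen activator, fell (-2.65 ± 0.11, adjusted p = 7.54e-09), and so did the urokinase gene Plau (-1.89 ± 0.19) and its receptor Plaur (-1.18 ± 0.11), along with the protease inhibitor Serpine2 (-1.98 ± 0.12). Htra3, a secreted serine protease, had 11.6, 11.5 and 14.97 CPM in KO_Opti, against 94.2, 104 and 109 CPM in WT_Norm (-3.01 ± 0.13, adjusted p = 9.12e-09). The collagenase Mmp13 (-1.11 ± 0.27), stromelysin Mmp3 (-1.7997 ± 0.37) and Mmp23 (-1.97 ± 0.11) were lower. The aggrecanases moved apart: Adamts4 fell (-1.64 ± 0.19, adjusted p = 1.78e-05) and Adamts5 rose (1.54 ± 0.22, adjusted p = 1.31e-04). Likewise Timp1 fell (-1.73 ± 0.14) and Timp3 rose (1.48 ± 0.19).

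Adhesion receptors were mainly lower, 20 of 35 against 4 higher, with a median of -0.44. Itga8 had 12.1, 14.3 and 14.02 CPM in KO_Opti, against 68.4, 82.00 and 52.9 CPM in WT_Norm. Itga8, an integrin subunit for fibronectin and nephronectin, fell (-2.33 ± 0.16, adjusted p = 2.50e-07), and Itga4, a subunit for fibronectin and VCAM-1, fell too (-2.51 ± 0.18, adjusted p = 4.82e-07). Itga7, a laminin-binding subunit, rose, with 25.2, 22.8 and 26.5 CPM in KO_Opti, against 6.75, 8.096 and 6.15 CPM in WT_Norm (1.83 ± 0.13, adjusted p = 5.08e-07). The hyaluronan receptor Cd44 (-1.35 ± 0.11) and syndecans Sdc1 (-1.16 ± 0.10) and Sdc3 (-1.75 ± 0.14) were lower, and the focal adhesion adaptors Pxn (0.58 ± 0.10) and Zyx (0.67 ± 0.10) were higher. On FPKM 11 members were lower.

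Motility and guidance genes changed less as a list: 16 of 42 were lower and 6 higher, with a median of -0.28, and 8 were lower on FPKM, where the median was 0.01. Robo2, a receptor for Slit guidance cues, had 2.86, 3.08 and 4.29 CPM in KO_Opti, against 27.98, 42.5 and 33.3 CPM in WT_Norm (-3.34 ± 0.20, adjusted p = 7.44e-08). Its ligand gene Slit2 also fell (-1.34 ± 0.45). Sema3d, a secreted semaphorin, fell (-4.18 ± 0.33, adjusted p = 8.95e-07), and Sema3c of the same family rose (1.74 ± 0.16, adjusted p = 4.03e-06). Efnb1, encoding ephrin-B1, was lower (-1.79 ± 0.11, adjusted p = 1.26e-07). The cytoskeletal regulators Rac1, Rhoa, Rock1 and Rock2 did not pass the test, and Cdc42 was slightly lower (-0.297 ± 0.09, adjusted p = 0.0222).

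Wnt and Hedgehog genes fell in 18 of 29 tested members and rose in 5, with a median of -1.17. Secreted Wnt inhibitors were prominent. Frzb had 0.768, 0.322 and 0.591 CPM in KO_Opti, against 20.8, 32.7 and 25.7 CPM in WT_Norm. Sfrp2 had 27.2, 44.2 and 36.2 CPM in KO_Opti, against 168, 149 and 160.4 CPM in WT_Norm. Frzb, a Wnt antagonist of articular cartilage, and Sfrp2 of the same family were lower in every KO_Opti library (-5.56 ± 0.37 for Frzb, adjusted p = 2.05e-07; -2.15 ± 0.17 for Sfrp2, adjusted p = 1.01e-06). Dkk2 (-2.41 ± 0.23), Wif1 (-3.84 ± 0.36) and the Wnt deacylase Notum (-3.96 ± 0.77) fell, and the Wnt target Axin2 fell with them (-1.92 ± 0.19, adjusted p = 5.82e-06). The Hedgehog targets Gli1 (-2.94 ± 0.49), Hhip (-3.67 ± 0.91) and Ptch1 (-1.53 ± 0.19) were lower, and Gli2, a mediator of the pathway, was higher (1.94 ± 0.30, adjusted p = 2.40e-04).

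Of 33 TGF-beta and BMP genes 16 were lower and 6 higher, with a median of -0.38, and 12 were higher on FPKM. Tgfb2 had 14.3, 17.8 and 17.2 CPM in KO_Opti, against 80.8, 112 and 90.2 CPM in WT_Norm. The ligand gene Tgfb2 fell (-2.52 ± 0.13, adjusted p = 2.23e-08), as did Tgfb1 (-0.92 ± 0.14), Tgfb3 (-1.25 ± 0.09) and Gdf6 (-3.32 ± 0.17, adjusted p = 3.06e-08). The BMP antagonist gene Grem1 rose (1.27 ± 0.17, adjusted p = 5.95e-05). The BMP target Id1 fell (-1.002 ± 0.15), and the inhibitory Smad gene Smad7 rose (1.17 ± 0.10).

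Of 35 other growth factors and receptors 18 were lower and 5 higher, with a median of -0.51. Vegfd, a lymphangiogenic ligand, had 5.701, 6.18 and 6.19 CPM in KO_Opti, against 36.2, 32.95 and 30.8 CPM in WT_Norm (-2.47 ± 0.12, adjusted p = 1.97e-08), while Vegfa rose (1.61 ± 0.17, adjusted p = 1.13e-05). Igf1 (-1.14 ± 0.15), Igfbp5 (-1.29 ± 0.18), Pdgfd (-2.12 ± 0.22) and Pdgfrl (-1.47 ± 0.09) fell. The receptors Fgfr1 (-0.93 ± 0.09), Fgfr2 (-1.07 ± 0.12) and Egfr (-0.51 ± 0.15) were lower as well.

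Amino acid and endoplasmic reticulum stress genes rose almost as a block: 24 of 26 were higher and 0 lower, with a median log2 fold change of 1.56. Their summed level was 4509 to 5099.9 CPM in KO_Opti and 1964 to 2313 CPM in WT_Norm. Many of these genes are targets of ATF4, whose translation rises when eIF2-alpha is phosphorylated under amino acid shortage or unfolded protein stress, and ATF4 with C/EBP partners binds a composite element whose core reads TGATGNAA (N for any base). The 250 bases before the RefSeq transcription start (GRCm38.p6, start site and transcribed bases left out) held this core on either strand in 6 of 24 matched members (25%), against 3.53% of 27018 promoters and 2.08% of 12664 promoters of tested genes. They are shown for 4 members that rose, 5′ to 3′ on the strand of the gene, with the core in capitals (TTGCATCA where it lies on the other strand), on chr2:119350992-119351241 (+ strand, Chac1), chr1:191183334-191183583 (- strand, Atf3), chr6:7693210-7693459 (- strand, Asns) and chr3:50443614-50443863 (- strand, Slc7a11).
Chac1: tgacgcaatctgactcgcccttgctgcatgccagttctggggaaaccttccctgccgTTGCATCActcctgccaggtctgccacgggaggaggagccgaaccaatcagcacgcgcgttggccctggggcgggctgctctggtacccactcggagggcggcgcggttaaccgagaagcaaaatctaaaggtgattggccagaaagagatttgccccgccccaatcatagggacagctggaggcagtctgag
Atf3: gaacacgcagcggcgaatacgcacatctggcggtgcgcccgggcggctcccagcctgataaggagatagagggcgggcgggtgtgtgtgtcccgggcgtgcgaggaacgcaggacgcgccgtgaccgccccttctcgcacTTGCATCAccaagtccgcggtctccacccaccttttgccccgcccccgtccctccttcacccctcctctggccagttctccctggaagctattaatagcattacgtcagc
Asns: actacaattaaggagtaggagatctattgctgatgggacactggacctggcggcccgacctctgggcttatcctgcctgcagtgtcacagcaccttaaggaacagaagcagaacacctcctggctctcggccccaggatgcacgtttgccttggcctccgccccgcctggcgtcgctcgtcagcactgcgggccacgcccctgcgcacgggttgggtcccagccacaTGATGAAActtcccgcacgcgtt
Slc7a11: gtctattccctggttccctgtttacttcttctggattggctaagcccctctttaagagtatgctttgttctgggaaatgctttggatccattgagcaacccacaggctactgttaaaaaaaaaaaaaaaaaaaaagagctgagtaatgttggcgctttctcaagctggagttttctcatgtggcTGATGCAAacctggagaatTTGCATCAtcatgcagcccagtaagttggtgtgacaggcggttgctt
The core began 193 bases before the start in Chac1, 110 in Atf3, 23 in Asns, and 66 and 47 in Slc7a11. Such a match describes letters in this window and was not tested for binding. Because many listed genes are known ATF4 targets, the share with the core may follow from how the list was made. The cause of the rise was not tested.

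Trib3 had 155, 190.1 and 170.5 CPM in KO_Opti, against 6.13, 15.2 and 3.99 CPM in WT_Norm. Chac1 had 95.1, 98.5 and 89.7 CPM in KO_Opti, against 8.63, 14.05 and 8.197 CPM in WT_Norm. Ddit3 had 193, 176 and 161 CPM in KO_Opti, against 18.1, 25.5 and 15.3 CPM in WT_Norm. Trib3 encodes a pseudokinase that restrains ATF4 signalling, Chac1 a glutathione-degrading enzyme and Ddit3 the stress transcription factor CHOP, and each separated the groups widely. The log2 fold changes were 4.33 ± 0.37 for Trib3 (adjusted p = 1.66e-06), 3.19 ± 0.18 for Chac1 (adjusted p = 4.93e-08) and 3.17 ± 0.17 for Ddit3 (adjusted p = 3.42e-08). The asparagine synthetase gene Asns rose, with 197, 213 and 208 CPM in KO_Opti, against 68.5, 76.8 and 64.7 CPM in WT_Norm (1.56 ± 0.11), as did the folate enzyme Mthfd2 (1.63 ± 0.08, adjusted p = 3.10e-08).

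Transporters took part. Slc7a3, a cationic amino acid carrier, had 37.2, 42.2 and 42.8 CPM in KO_Opti, against 3.54, 5.49 and 4.55 CPM in WT_Norm (3.17 ± 0.15, adjusted p = 1.98e-08). The cystine carrier Slc7a11 (2.103 ± 0.35), the large neutral amino acid carrier Slc7a5 (2.41 ± 0.16) and their shared heavy chain Slc3a2 (1.56 ± 0.10) rose. Atf4 itself rose (1.31 ± 0.11, adjusted p = 1.24e-06), and so did Atf3 (2.095 ± 0.12) and Cebpb (2.103 ± 0.47). The chaperone Hspa5, a main target of the unfolded protein response, rose less (0.57 ± 0.13), and Xbp1 did not pass (-0.23 ± 0.13). WT_Norm was the low group of the 4 for this list: the sums were 5754 to 6063 CPM in KO_Norm and 5618 to 6334 CPM in WT_Opti.

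Cell cycle genes fell. Of 24 mitosis genes 23 were lower and 0 higher, with a median of -1.31, and of 25 DNA replication genes 19 were lower and 0 higher, with a median of -0.85. Mki67 had 8.49, 11.8 and 11.4 CPM in KO_Opti, against 43.97, 29.1 and 32.7 CPM in WT_Norm. Cdk1 had 13.1, 15.3 and 16.2 CPM in KO_Opti, against 43.3, 33.4 and 27.8 CPM in WT_Norm. Mki67, the proliferation marker, and Cdk1, the mitotic kinase, were lower in every KO_Opti library, with log2 fold changes of -1.74 ± 0.21 for Mki67 (adjusted p = 3.11e-05) and -1.23 ± 0.17 for Cdk1 (adjusted p = 7.98e-05). The spindle checkpoint kinase Ttk (-1.802 ± 0.23, adjusted p = 5.06e-05), the S-phase cyclin Ccne1 (-2.39 ± 0.15, adjusted p = 1.66e-07) and the ribonucleotide reductase gene Rrm2 (-1.96 ± 0.20, adjusted p = 6.59e-06) fell. With the Y-linked covariate 14 mitosis and 10 replication genes were lower.

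The 250-base promoter window of Cdk1 is shown because its element for cell cycle control, the cell cycle homology region core TTTGAA, occurs near the start. It lies on chr10:69352913-69353162 (- strand, Cdk1), with the core in capitals, 71 and 15 bases before the start.
Cdk1: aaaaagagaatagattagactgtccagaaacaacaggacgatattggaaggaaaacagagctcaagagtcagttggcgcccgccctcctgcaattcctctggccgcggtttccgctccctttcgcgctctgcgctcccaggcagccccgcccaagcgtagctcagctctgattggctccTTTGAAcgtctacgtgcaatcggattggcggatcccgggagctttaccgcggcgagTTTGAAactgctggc
TTTGAA on either strand was found in 7 of 19 matched mitosis promoters (36.8%), against 16.3% of all promoters and 11% of those of tested genes.

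The G1 genes fell in 10 of 16 and rose in 1. All 3 D-type cyclins, which drive cells out of G1, were lower, with log2 fold changes of -1.101 ± 0.09 for Ccnd1 (adjusted p = 1.02e-06), -1.0998 ± 0.10 for Ccnd2 (adjusted p = 3.73e-06) and -1.27 ± 0.12 for Ccnd3 (adjusted p = 5.21e-06). The CDK inhibitors differed in direction, since Cdkn1a (p21) fell (-1.14 ± 0.12, adjusted p = 1.11e-05) and Cdkn1b (p27) rose (1.23 ± 0.13, adjusted p = 8.00e-06). Cdkn1b had 54.4, 42.3 and 44.7 CPM in KO_Opti, against 20.6, 22.8 and 16.7 CPM in WT_Norm. Its groups did not overlap.

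Of 21 p53 and quiescence genes 6 were higher and 9 lower. Gadd45a, which is induced by DNA damage and by ATF4, rose the most. Gadd45a had 135, 129 and 121 CPM in KO_Opti, against 7.65, 13.5 and 7.27 CPM in WT_Norm. Its log2 fold change was 3.76 ± 0.20 (adjusted p = 3.39e-08). Sesn1, a p53 target, fell (-1.14 ± 0.10, adjusted p = 1.87e-06), as did Txnip, a glucose-regulated inhibitor of thioredoxin (-1.81 ± 0.16, adjusted p = 2.54e-06).

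Contractile genes fell in 14 of 18 members and rose in 1, with a median of -0.69. Tagln had 200.4, 173 and 189.96 CPM in KO_Opti, against 596, 481 and 656 CPM in WT_Norm. Cnn1 had 2.05, 1.94 and 2.196 CPM in KO_Opti, against 29.8, 18.3 and 22.3 CPM in WT_Norm. Tagln (transgelin) and Cnn1 (calponin-1), actin-binding proteins of smooth muscle and myofibroblasts, were lower in every KO_Opti library (-1.62 ± 0.14 for Tagln, adjusted p = 1.48e-06; -3.51 ± 0.29 for Cnn1, adjusted p = 1.17e-06). Acta2, the smooth muscle actin, fell less (-0.67 ± 0.12, adjusted p = 4.91e-04), and Actn1 rose (0.38 ± 0.12), though 0 members were higher without KO_Opti replicate 2 or 3 or WT_Norm replicate 2 or 3. With the Y-linked covariate 6 members were lower.

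Serum response factor binds the CArG box in many of these genes, and Myl9, a myosin light chain gene that fell (-1.29 ± 0.13, adjusted p = 5.88e-06), shows one in capitals 161 bases before its start, on chr2:156775214-156775463 (+ strand, Myl9).
Myl9: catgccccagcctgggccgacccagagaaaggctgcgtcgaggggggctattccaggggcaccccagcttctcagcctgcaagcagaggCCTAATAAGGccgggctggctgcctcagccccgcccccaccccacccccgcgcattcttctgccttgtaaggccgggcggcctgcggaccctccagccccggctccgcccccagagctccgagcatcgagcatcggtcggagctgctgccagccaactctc
The box was found in 4 of 14 matched contractile promoters (28.6%) and 2 of 19 immediate early promoters (10.5%), against 1.4% of all promoters and 1.18% of those of tested genes. These lists hold known serum response factor targets, so the shares may follow from how the lists were made, and binding was not tested.

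Immediate early genes and other serum response factor targets fell in 18 of 27 members and rose in 2 (1 when any 1 library other than WT_Norm replicate 1 was left out), with a median of -1.05. Egr1 had 99.97, 111 and 95.5 CPM in KO_Opti, against 429, 462 and 496 CPM in WT_Norm. Fosb had 2.84, 2.96 and 2.63 CPM in KO_Opti, against 14.01, 17.3 and 18.2 CPM in WT_Norm. Egr1 and Fosb are transcription factors induced within minutes of growth factor stimulation, and both were lower in every KO_Opti library (-2.18 ± 0.14 for Egr1, adjusted p = 1.27e-07; -2.55 ± 0.16 for Fosb, adjusted p = 1.22e-07). The ERK feedback genes Dusp6 (-1.84 ± 0.10, adjusted p = 3.99e-08) and Spry4 (-2.04 ± 0.16) fell too. Klf4 rose (0.97 ± 0.14), and Srf itself (-0.15 ± 0.08) and the YAP target Ccn2 (0.06 ± 0.21) did not pass.

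**Figure D4:**
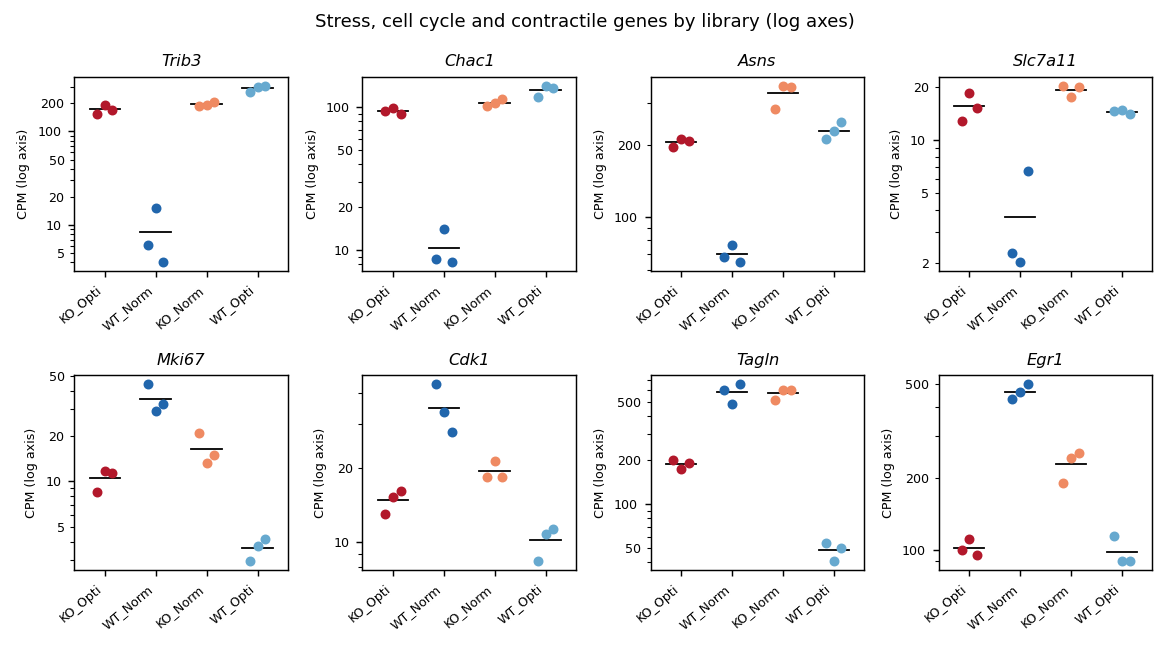
CPM (TMM-scaled, log axes) of 4 amino acid and ER stress genes, 2 cell cycle genes, the contractile gene Tagln and the immediate early gene Egr1 in each library of the 4 groups, with the group mean as a line (n = 3). Trib3, Chac1, Asns and Slc7a11 lie higher in every KO_Opti library than in every WT_Norm library, and Mki67, Cdk1, Tagln and Egr1 lie lower.

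Cholesterol synthesis and uptake genes rose in 8 of 25 members and fell in 1, with a median of 0.25, and 19 were higher without TMM factors or on FPKM. Without KO_Opti replicate 2, 6 were higher and 2 lower, with a median of 0.14, and with the Y-linked covariate 5 were higher. Lss had 113, 132 and 105 CPM in KO_Opti, against 59.8, 54.8 and 55.7 CPM in WT_Norm. Lss, encoding lanosterol synthase, rose (1.04 ± 0.10, adjusted p = 6.00e-06), with the sterol sensor Insig1 (0.87 ± 0.09, adjusted p = 9.15e-06). Of 16 fatty acid synthesis genes 2 were higher (Acaca, 0.64 ± 0.15; Fads1, 0.58 ± 0.09) and 2 lower (Scd2, -0.54 ± 0.16; Fads2, -0.29 ± 0.10), and 7 were higher and 0 lower on FPKM. Without KO_Opti replicate 1 or 3, 0 were lower, and without WT_Norm replicate 1 or 3 only Scd2 was. With the Y-linked covariate 0 were lower and 1 was higher, without the call for Acaca.

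Of 26 oxidative stress and metal genes 13 were higher and 4 lower, with a median of 0.29, and with the Y-linked covariate 8 were higher. Nqo1 had 47.6, 41.9 and 40.9 CPM in KO_Opti, against 13.9, 14.5 and 15.2 CPM in WT_Norm. Hmox1 had 542, 609 and 534 CPM in KO_Opti, against 186, 239 and 203 CPM in WT_Norm. Nqo1 and Hmox1, antioxidant enzymes under NRF2 control, did not overlap between the groups (1.58 ± 0.13 for Nqo1, adjusted p = 1.70e-06; 1.42 ± 0.12 for Hmox1, adjusted p = 2.17e-06). The metallothioneins Mt1 (1.72 ± 0.18) and Mt2 (2.07 ± 0.21) and the glutathione synthesis genes Gclc (0.78 ± 0.14) and Gclm (0.82 ± 0.13) rose, and Gstm2, a glutathione transferase, fell (-1.86 ± 0.10, adjusted p = 4.02e-08).

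Interferon response genes showed no common direction, with 5 of 28 higher and 6 lower. Psmb8 and Tap1, which serve antigen presentation, fell (-1.88 ± 0.16 for Psmb8, adjusted p = 1.47e-06; -1.21 ± 0.11 for Tap1, adjusted p = 3.28e-06), and Irf9, a subunit of the interferon-stimulated transcription factor, rose (1.19 ± 0.12, adjusted p = 6.57e-06). Without WT_Norm replicate 2 there were 3 lower. Chemokine and inflammation genes fell in 14 of 28 and rose in 4, with a median of -0.94, which was -0.44 without WT_Norm replicate 1. On FPKM 8 were lower, and with the Y-linked covariate 10 were lower and 1 higher. Ptges had 5.87, 5.13 and 5.93 CPM in KO_Opti, against 25.1, 23.1 and 23.04 CPM in WT_Norm. Ptges, a prostaglandin E synthase gene, fell (-2.07 ± 0.14, adjusted p = 2.53e-07), as did the adhesion gene Icam1 (-2.15 ± 0.21, adjusted p = 4.60e-06). Il6 rose, at a low level of 3.37, 1.27 and 3.78 CPM in KO_Opti, against 0.237, 0.0947 and 0.367 CPM in WT_Norm (3.605 ± 0.87, adjusted p = 0.00517).

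The 10 largest increases that passed the test, averaged 5 CPM or more and separated the groups included several genes outside these lists. B4galnt2 had 9.18, 14.1 and 11.5 CPM in KO_Opti, against 0, 0.189 and 0 CPM in WT_Norm. B4galnt2 encodes a glycosyltransferase, and its call (adjusted p = 8.05e-06) is given without a fold change because 2 of its 3 WT_Norm values were 0. Nos1 had 129.6, 188 and 162 CPM in KO_Opti, against 2.12, 4.47 and 4.59 CPM in WT_Norm. Nos1 encodes neuronal nitric oxide synthase (5.43 ± 0.35, adjusted p = 1.71e-07). Lama1 had 30.8, 32.8 and 29.1 CPM in KO_Opti, against 1.01, 1.48 and 0.992 CPM in WT_Norm. Lama1 encodes the laminin alpha-1 chain (4.72 ± 0.31, adjusted p = 1.74e-07). The others were Car6, a secreted carbonic anhydrase (4.996 ± 0.50), Trib3, the gene model Gm28035 (4.24 ± 0.37), which overlaps Lrrc8a and Phyhd1 on the same strand so that its count is uncertain, the phosphodiesterase Pde1c (4.21 ± 0.22), Ostn, encoding musclin (3.79 ± 0.37), Gadd45a and Cilp2 (3.72 ± 0.24). WT_Norm had the lowest of the 4 group means for each of the 10. Mean CPM in WT_Opti exceeded that in KO_Opti for Trib3 (290 against 172) and Gadd45a (153 against 128). The same held for Ostn (59.1 against 51.6) and Car6 (28.3 against 26.9). WT_Opti was lower than KO_Opti for Gm28035 (25.6 against 30.8), Lama1 (19.3 against 30.9) and Nos1 (28.8 against 160). It was also lower for Pde1c (12.9 against 41.6), Cilp2 (7.63 against 33.1) and B4galnt2.

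Of the 10 largest decreases, the size of the change in Cyp2f2 and Ace depended on 1 library. Cyp2f2 had 0.142, 0.0804 and 0.0899 CPM in KO_Opti, against 0.174, 26.1 and 3.47 CPM in WT_Norm (-6.56 ± 1.62, adjusted p = 0.00602). Ace had 0.213, 0 and 0.167 CPM in KO_Opti, against 0.458, 27.9 and 2.67 CPM in WT_Norm (-6.34 ± 1.47, adjusted p = 0.00409). WT_Norm replicate 2 was high for both, and without it the log2 fold changes were -4.11 for Cyp2f2 and -3.61 for Ace, and both still passed the test. Their calls were lost on log2(FPKM + 1). Slc8a3, a sodium-calcium exchanger, was lower in every library, with 0.313, 1.11 and 0.629 CPM in KO_Opti, against 43.2, 68.1 and 58.7 CPM in WT_Norm (-6.36 ± 0.38, adjusted p = 7.92e-08). Cpz, a Wnt-binding carboxypeptidase, had 1.27, 1.72 and 2.81 CPM in KO_Opti, against 100.2, 126 and 131 CPM in WT_Norm (-5.94 ± 0.29, adjusted p = 1.98e-08). The others were Frzb, Dpt, Ibsp, Stc1, encoding stanniocalcin-1 (-5.08 ± 0.42), Tmem26 (-4.81 ± 0.36) and Rgs16, which dampens G protein signalling (-4.78 ± 0.25). WT_Norm had the highest of the 4 group means for each of the 10. The mean CPM of WT_Opti was 0.216 for Cyp2f2, 0.758 for Ace, 1.90 for Slc8a3, 0.954 for Frzb, 0.596 for Stc1 and 0.939 for Rgs16. It was 4.84 for Tmem26, 18.7 for Dpt, 71.3 for Ibsp and 101 for Cpz.

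Markers of the labelled cell type were present in both groups: all 10 fibrochondrocyte markers were tested, of which 2 were higher and 7 lower. Myeloid cell markers were lower in KO_Opti in 18 of 19 genes, with a median of -2.06, and their sum was 228 to 258 CPM in KO_Opti and 648 to 794 CPM in WT_Norm, without overlap. In bulk RNA, fewer cells of a type and less RNA per cell cannot be told apart. Csf1r had 8.59, 11.4 and 9.901 CPM in KO_Opti, against 48.2, 32.3 and 40.9 CPM in WT_Norm. Csf1r, the macrophage colony-stimulating factor receptor, was lower in every KO_Opti library (-2.02 ± 0.23, adjusted p = 2.13e-05), as were the B-cell and myeloid antigen presentation gene Cd74 (-2.06 ± 0.41) and the mannose receptor Mrc1 (-3.42 ± 0.38). Some chemokine and protease genes named above are also made by macrophages, and their part in those results was not tested.

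Markers of other cell types were counted in the same way. Osteoclast markers were lower in 3 of 7 genes and higher in 1. Their sum was 455 to 489 CPM in KO_Opti and 743 to 1001 CPM in WT_Norm, without overlap, and 3 were lower under every alternative run, whereas 0 were higher when any 1 library other than WT_Norm replicate 2 was left out. Mural cell markers, which include Cspg4 and Pdgfrb themselves, were lower in 8 of 10 and higher in 1 (Pdgfrb), and 6 to 9 were lower when single libraries were left out. Their sum, which Pdgfrb enters, was 654 to 757 CPM in KO_Opti and 538 to 568 CPM in WT_Norm. Endothelial markers were lower in 9 of 10 genes and higher in 1 (Erg), but 2 were lower without WT_Norm replicate 2. The endothelial sum was 7.83 to 13.7 CPM in KO_Opti, against 6.43, 66.2 and 12.4 CPM in WT_Norm, so replicate 2 held most of it. The epithelial sum was 1.65 to 30.8 CPM in KO_Opti, against 180.0, 107.6 and 3.11 CPM in WT_Norm, with 1 of 8 genes lower (Krt14) and 0 higher. Without WT_Norm replicate 2 or KO_Opti replicate 1 or 3, 0 epithelial genes were lower, and 2 were without WT_Norm replicate 3. Glial and neuronal markers were lower in 8 of 14 genes and higher in 0, with a median of -1.43. Their sum was 192 to 222 CPM in KO_Opti, against 459 CPM in WT_Norm replicate 3 and 242 and 209.9 CPM in the other WT_Norm libraries. Without WT_Norm replicate 3, 3 were lower and 1 higher, without a single KO_Opti library 4 or 5 were lower, and with the Y-linked covariate 0 were lower and 0 higher, with a median of 0.14. Adipocyte genes were not called in any of 3, skeletal muscle genes were lower in 1 of 4 (2 without WT_Norm replicate 1 or 3), and lymphoid genes had too few counts to test.

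Mitochondrially encoded genes were higher in 12 of 13, with a median of 1.07. KO_Opti replicate 1 held the largest share, and without it 4 were higher with a median of 0.55, against 5 without WT_Norm replicate 1 and 7 without WT_Norm replicate 2. With the Y-linked covariate 0 were. The sex-linked genes were higher in 4 of 5, but in 2 without KO_Opti replicate 1 or 3 or WT_Norm replicate 1 or 3. With the Y-linked covariate 0 were higher. That covariate is the mean of the Y-linked genes themselves, so for those genes the loss was fixed by its construction. Xist, 1 of the 4 higher genes, had 449.5, 217 and 362 CPM in KO_Opti, against 200.2, 210.3 and 154 CPM in WT_Norm. Of 6 genes listed because they differ between C57BL/6 substrains, 5 were tested. Of these 2 were higher and 0 lower, with a median of 0.55. Without WT_Norm replicate 3 or KO_Opti replicate 3, 1 was higher, and without WT_Norm replicate 1 or 2, 1 was also lower. In KO_Norm against WT_Opti 2 were higher and 0 lower. Wdfy1, 1 of the 2 higher genes here, had 102, 99.6 and 99.2 CPM in KO_Opti, against 18.2, 18.7 and 15.3 CPM in WT_Norm (2.53 ± 0.12, adjusted p = 1.73e-08), and had 104, 94.4 and 85.4 CPM in KO_Norm, against 21.5, 21.9 and 17.2 CPM in WT_Opti. It overlaps Mrpl44 on the opposite strand, and whether the counting used strand is not given in the sources used here. Genes flanking Cspg4 were higher in 7 of 16 and lower in 1, and 1 was higher with the Y-linked covariate. The part of any of these in the results above was not tested beyond the alternatives named.

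Knockout was also compared with wild type in the other 6 libraries, KO_Norm against WT_Opti. These share no library with this comparison and carry the opposite label conflict. If the treatment entry is right, this is genotype within serum-free medium. If the title is right, genotype and medium changed together, with the media the other way round. In KO_Norm against WT_Opti 4514 of 19118 genes passed, 2405 higher (12.6%) and 2109 lower (11%). Of 2627 genes called in both pairs, 1304 changed in the same direction and 1323 in opposite directions. The same-direction genes were 16.4% of the calls in KO_Opti against WT_Norm and 28.9% of those in KO_Norm against WT_Opti. The test of the difference between the pairs called 6635 genes (34.7%), among them 5027 (63.3%) of the 7944 called here and all 1323 with opposite calls.

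Several lists turned round between the pairs. Mitosis genes, lower here in 23 of 24, were higher in 24 of 24 in KO_Norm against WT_Opti, and all 24 passed the test of the difference. Contractile genes were lower here in 14 of 18 and higher in 17 of 18 there, and all 18 passed that test. Immediate early genes were higher in 21 of 27 there and passed in 26, and integrins and adhesion genes were higher in 18 of 35 and passed in 26. Of the amino acid and ER stress genes 6 were higher and 3 lower there, and 24 of 26 passed the test of the difference. Myeloid markers, lower here in 18 of 19, were lower in 6 and higher in 0 there, with a median of -0.47, and 15 passed that test. Cholesterol genes, higher here in 8 of 25 and lower in 1, were higher in 22 and lower in 0 there, with medians of 0.25 here and 1.29 there, and 17 passed the test of the difference, all with the lower value here. The matrix lists that mostly fell here were split there. Fibrillar matrix genes were higher in 7 and lower in 8 of 28, with a median of 0.02, and 19 passed the test of the difference. Cartilage genes were higher in 8 and lower in 6 of 25, and 13 passed it. Bone genes were higher in 6 and lower in 6 of 17, and 14 passed it. Matrix proteases and inhibitors were higher in 11 and lower in 10 of 32, and 19 passed it.

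Cspg4 was lower in both pairs, with a log2 fold change of -3.42 ± 0.18 in KO_Norm against WT_Opti, and the difference between the pairs did not pass (adjusted p = 0.0552). Col6a1 fell in both, by less in the second (-0.48 ± 0.14, adjusted p of the difference = 2.63e-04). Col6a3 had 0.39 ± 0.23 there, which did not pass, and differed between the pairs (adjusted p = 6.45e-04). Pdgfra (-0.86 ± 0.16) did not differ past the threshold (adjusted p = 0.504), and Pdgfrb (0.53 ± 0.14) did (adjusted p = 0.0201).

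**Figure D5:**
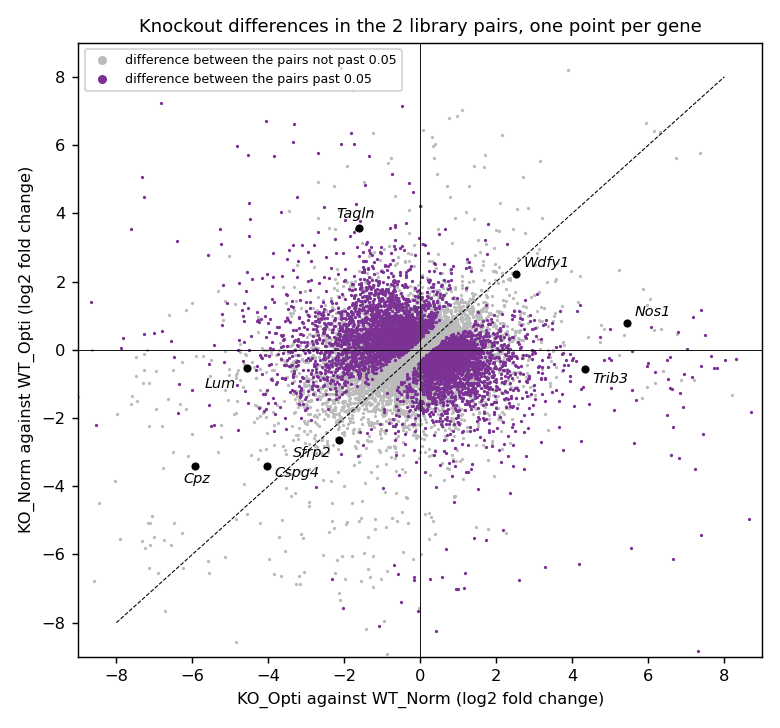
Log2 fold change of each tested gene in KO_Opti against WT_Norm (x axis) and in KO_Norm against WT_Opti (y axis), with genes whose difference between the pairs passed an adjusted p of 0.05 in purple, the others in grey and a dashed line of equality (13 genes lie outside the range of 9 on either axis). Cspg4, Cpz and Sfrp2 are low on both axes and Wdfy1 high on both, whereas Tagln is low on the x axis and high on the y axis.

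Set against the wild type libraries that carry the same title word, KO_Opti against WT_Opti called 5395 genes, 2539 higher (13.3%) and 2856 lower (14.9%). This comparison shares the KO_Opti libraries with the first, so the counts are given side by side. Mitosis genes were higher in 23 of 24 against WT_Opti, where they were lower in 23 of 24 against WT_Norm. Contractile genes were higher in 17 of 18, cholesterol genes higher in 24 of 25 and lower in 1, and fibrillar matrix genes higher in 6 and lower in 13 of 28. Amino acid and ER stress genes were higher in 1 and lower in 8 of 26, and myeloid markers lower in 17 of 19 and higher in 0.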

How the data were processed

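RNA from 12 samples, 3 per group, was made into stranded poly(A) libraries and sequenced as read pairs on an Illumina instrument. Per the labels and methods, the authors mapped reads with HISAT2, assembled transcripts with StringTie, merged them with gffcompare and used edgeR. The sources used here give no versions, genome build or counting options. The deposited table holds raw read counts per gene, which carry every main result, and FPKM values that the authors computed, used only as an alternative. Of its gene IDs 99.7% were found in GENCODE M21 (GRCm38). Samples were grouped by title.

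Counts of all 12 libraries were fitted in edgeR 4.0.16 (R 4.3.3) with 1 mean per group, filterByExpr, TMM factors and the quasi-likelihood test, since the methods name edgeR but give no design. Genes with a Benjamini-Hochberg adjusted p under 0.05 over 19118 genes were called. The biological coefficient of variation was 25.4%. Alternatives were limma 3.58.1 on log2(FPKM + 1), whose folds understate changes of low genes, DESeq2 1.42.0, other scalings and filters, a Y-linked covariate, a replicate block and single libraries left out. The fit was checked on simulated counts in which few genes changed, as many up as down. That check therefore does not cover the dependence of the split on scaling.

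The comparison and its 38 gene lists were chosen with earlier results of these data known, so lists are described by counts and medians. Named genes were Cspg4 and its partners, the 3 smallest adjusted p of each list and the 10 largest changes per direction; further list members are given as examples chosen after their values were seen, and some genes the rule selects are not reported here. Promoter sequences and starts came from RefSeq (GRCm38.p6).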

Additional observations from a re-analysis of the deposited data

Results flagged for a closer look

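Among NG2/CSPG4 and its ligands and partners, 13 of 25 genes differed between KO_Opti against WT_Norm and KO_Norm against WT_Opti in the test of the difference itself (edgeR quasi-likelihood test, adjusted p under 0.05 over all genes), beside 34.7% of all tested genes. Values are the log2 fold change in the first pair minus that in the second. The collagen VI chains stood lower in the first pair, with differences of -1.34 for Col6a1, -1.73 for Col6a2 and -1.95 for Col6a3. So did the ligands, with -1.56 for Pdgfa and -0.521 for Fgf2, and the beta-1 integrin subunit, with -0.96 for Itgb1. The signalling genes had differences of -1.04 for Mapk3, -1.24 for Prkca, -1.54 for Tiam1 and -0.563 for Rhoa. The sheddase Adam10 had -0.618. Lgals3 at 0.973 and Pdgfrb at 0.68 stood higher in the first pair. Since the labels of the knockout libraries name opposite media, these differences cannot be assigned to serum.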

How the results depend on the processing

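No call turned to the opposite direction in KO_Opti against WT_Norm under any alternative run, and of 108 named genes 92 stayed on the same side of the threshold throughout. Over 17 alternatives the named genes gave 1836 values, of which 52 were no longer past the threshold, in 11 genes, and 13 were newly past it. The causes were not tested. KO_Opti against WT_Norm called 7878 genes with RLE size factors, 8540 with DESeq2, 6872 in a fit of its 6 libraries alone and 7090 with no filter. With Y-linked expression as a covariate it called 3540 (1444 higher, 2096 lower), KO_Norm against WT_Opti 978 (599 higher, 379 lower) and KO_Opti against WT_Opti 3406 (1516 higher, 1890 lower). Library totals without TMM gave 6646 higher genes in the first comparison and 5552 in the difference between the pairs. On log2(FPKM + 1), log2(FPKM + 0.1) and log2(FPKM + 1) without a filter, the first comparison gave 6998, 7032 and 6550 higher genes and 2411, 2450 and 2287 lower ones. On the same 3 scales the difference between the pairs gave 1888, 1920 and 1707 lower genes, and 5607 and 5566 higher genes on the first 2. KO_Norm against WT_Opti gave 1572 higher genes on log2(FPKM + 1) and 1309 without a filter. Leaving out single libraries gave 6544 to 7606 calls in KO_Opti against WT_Norm, 3154 to 4287 in KO_Norm against WT_Opti, 5553 to 6623 for the difference and 4031 to 5091 in KO_Opti against WT_Opti. Leaving out WT_Norm replicate 3 (fewest counts) and KO_Opti replicate 1 (highest mitochondrial share) together, chosen after seeing the data, gave 6379. Same-numbered libraries did not deviate together (correlations -0.198, -0.010 and -0.123), beside -0.082 to 0.175 for libraries with different numbers. With 3 libraries per group these values cannot show whether the numbers pair them. The replicate block gave 7563 calls and changed the call of no named gene.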
